A study of Mus musculus with 17 samples.

Results

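The genes described here encode the Ras family GTPases, their regulators, and the kinases and feedback inhibitors of the MAP kinase cascade. A list of 34 genes was fixed by symbol, and 33 of them matched a symbol among the 15355 genes of the deposited table. The remaining gene, Hras, stands in the table under Hras1, a RefSeq synonym, so its values are given under that name and counted apart from the 33. All 34 passed the filter on low values and were tested in every comparison. The libraries hold RNA pulled down from the mediobasal hypothalamus of POMC RiboTag mice with an antibody to the HA tag on ribosomes. POMC (pro-opiomelanocortin) neurons suppress appetite, and in RiboTag mice cells in which the driver is, or was earlier, active carry a tagged ribosome. The 4 groups were offspring of dams fed a 45% high-fat diet (HFD) at postnatal day 21 (P21, n = 4), offspring of chow-fed dams at P21 (n = 3), HFD offspring at postnatal day 0 (P0, n = 5) and chow offspring at P0 (n = 5). All dams were RiboTag females that started their diet at 6 weeks of age, were mated 4 weeks later and ate it until the pups were weaned or reached day 21. The labels call the libraries biological replicates without naming animals, litters, pools, strain or sex, so p-values reflect only how much these libraries vary.

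Ras proteins are membrane-bound switches that are active when loaded with GTP. Growth factor receptors recruit adaptors and exchange factors that load them, GTPase activating proteins turn them off, and active Ras passes the signal to Raf, MEK and ERK kinases in turn. In hypothalamic neurons this cascade carries signals from leptin, growth factors and calcium entry, and ERK induces inhibitors of its own pathway.

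The promoters of 5 members are shown first, chosen with their values and motifs in view. They are bases before the RefSeq gene start (GRCm38.p6, the assembly called mm10), read 5′ to 3′ on the gene's strand, without the bases that GENCODE M21 places inside the gene. Capitals mark motif matches, which are CCGGAAG and TGACGTCA in Ptpn11 and CGCCCACGC in Ralb. The windows are chr9:89909525-89909774 on the plus strand for Rasgrf1, and on the minus strand chr9:64253632-64253855 for Map2k1, chr5:121191398-121191647 for Ptpn11, chr13:17944240-17944467 for Rala and chr1:119504795-119505032 for Ralb. The Rasgrf1 window lies upstream of the GENCODE gene, whose first base is 89909908. Rasgrf1 and Map2k1 showed the highest rises with age among exchange factors and kinases, Ptpn11 held a pair of motif types, and Rala and Ralb are related GTPases that both fell.
Rasgrf1: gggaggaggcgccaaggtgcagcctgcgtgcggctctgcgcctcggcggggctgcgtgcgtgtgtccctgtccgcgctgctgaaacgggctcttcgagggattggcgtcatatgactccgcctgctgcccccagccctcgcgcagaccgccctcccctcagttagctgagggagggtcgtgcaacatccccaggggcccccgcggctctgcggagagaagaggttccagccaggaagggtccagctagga
Map2k1: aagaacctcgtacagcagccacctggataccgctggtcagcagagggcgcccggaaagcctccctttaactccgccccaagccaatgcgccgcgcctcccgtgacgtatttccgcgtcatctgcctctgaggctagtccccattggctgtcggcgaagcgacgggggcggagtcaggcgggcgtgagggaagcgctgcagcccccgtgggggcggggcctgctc
Ptpn11: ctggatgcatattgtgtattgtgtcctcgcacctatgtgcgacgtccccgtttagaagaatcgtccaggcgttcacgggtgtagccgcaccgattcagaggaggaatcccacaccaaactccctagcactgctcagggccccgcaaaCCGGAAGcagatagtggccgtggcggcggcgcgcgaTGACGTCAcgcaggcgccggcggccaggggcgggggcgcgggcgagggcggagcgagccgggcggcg
Rala: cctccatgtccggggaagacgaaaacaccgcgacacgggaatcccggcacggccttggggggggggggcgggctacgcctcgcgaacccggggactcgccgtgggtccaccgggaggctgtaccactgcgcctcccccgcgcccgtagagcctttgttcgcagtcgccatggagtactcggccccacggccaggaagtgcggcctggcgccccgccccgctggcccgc
Ralb: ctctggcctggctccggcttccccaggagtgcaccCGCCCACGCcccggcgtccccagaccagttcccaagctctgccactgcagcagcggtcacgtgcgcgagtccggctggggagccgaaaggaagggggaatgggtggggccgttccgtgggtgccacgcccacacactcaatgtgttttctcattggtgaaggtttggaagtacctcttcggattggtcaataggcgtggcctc

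The full windows of 250 bases were searched on both strands, and 31 of the 34 members had one. The cAMP response element TGACGTCA, bound by CREB, was in 3 members (Braf, Ptpn11 and Rap1b), or 9.68%, against 1.55% of 32851 promoters and 2.68% of 11263 promoters of genes in the table. The ETS motif CCGGAAG, bound by factors such as ELK1 that ERK phosphorylates, was in 4 members (Nf1, Ptpn11, Rala and Rasa1), or 12.9%, against 6.91% of all promoters and 12.2% of those of table genes. The Rala match reaches into the 22 bases that GENCODE M21 places inside the gene, so it does not appear in the printed sequence. The EGR motif GCGTGGGCG was in Ralb alone, against 1.04% of promoters of table genes. The AP-1 motif TGANTCA was in 0 of the 31, against 4.27% of promoters of table genes. No other member than Ptpn11 held more than 1 motif type. None of the motifs overlap one another as printed. Rasgrf1 itself spans chr9:89909908-90026977 on the plus strand, Map2k1 chr9:64185770-64253631 on the minus strand, Nras chr3:103058285-103067914 on the plus strand and Rras2 chr7:114046782-114117781 on the minus strand (GENCODE M21). The largest exonic overlap of a member with another gene was 5.23%, between Gab1 and Gm31105 on the opposite strand. Members' windows were rich in G and C, with a median of 65.6%, against 59.6% in table genes. A match describes letters in this window and shows no binding.

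Depth ran between 22.4 and 37.1 M reads (M, mega) counted to genes, and values are normalized signal in units close to CPM. Pomc itself measured 7460 to 9818 in HFD P21 libraries, 3878 to 12070 in chow P21 libraries, 90.7 to 1057 in HFD P0 libraries and 146 to 1308 in chow P0 libraries. Markers of other cells were present as well, and no marker of the 8 lists was at 0 in every library. The library farthest from its own group was HFD P0 replicate 5. Its Pomc value was 1057, against 90.7 to 246 in the other HFD P0 libraries. Chow P0 replicates 1 to 5 measured 146, 224, 657, 891 and 1308. Without HFD P0 replicate 5, HFD libraries of low Pomc are thus set against chow libraries of low and high Pomc. The sum of 7 markers of immature and dividing cells in HFD P0 replicate 5 was 608, against 996 to 1388 in the others of its group. Its median distance from the mean of the other libraries of its group was 0.468 on the log2 scale over all genes, against 0.236 to 0.335 for the other HFD P0 libraries. HFD P0 replicates 5 and 2 each held the group's highest or lowest value for 24 of the 34 members (70.6%), against 62.4% and 46.6% of all genes. Calls that turn on replicate 5 are given with and without it. Chow P21 replicate 3 had the highest Pomc value of its group, 12070, against 3878 and 4679, and held the highest or lowest value for 27 of the 34 members (79.4%), against 74.3% of all genes.

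Levels between genes were compared as signal per kilobase of exon. The length was that of the merged exons of all GENCODE M21 transcripts of a gene, and the order of genes depends on it. Before that division Araf lay above Map2k1 at P21, at 712 against 551 in HFD and 590 against 420 in chow offspring. It also lay above Rala at P0, at 339 against 324 in HFD and 350 against 305 in chow offspring. At P21 Map2k1 was first of the 34 members, at 163 ± 16.6 per kb in HFD offspring and 124 ± 12.96 in chow offspring (SD), with Araf and then Mapk3 next in both. At P0 Rala was first, at 112 ± 13.9 per kb in HFD offspring and 105 ± 8.32 in chow offspring. Rasgrf1 ranked 8 in HFD P21, 9 in chow P21, 27 in HFD P0 and 31 in chow P0. The scaffold Ksr1 was last in every group, with means of 0.234 to 0.390 per kb.

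**Figure D1:**
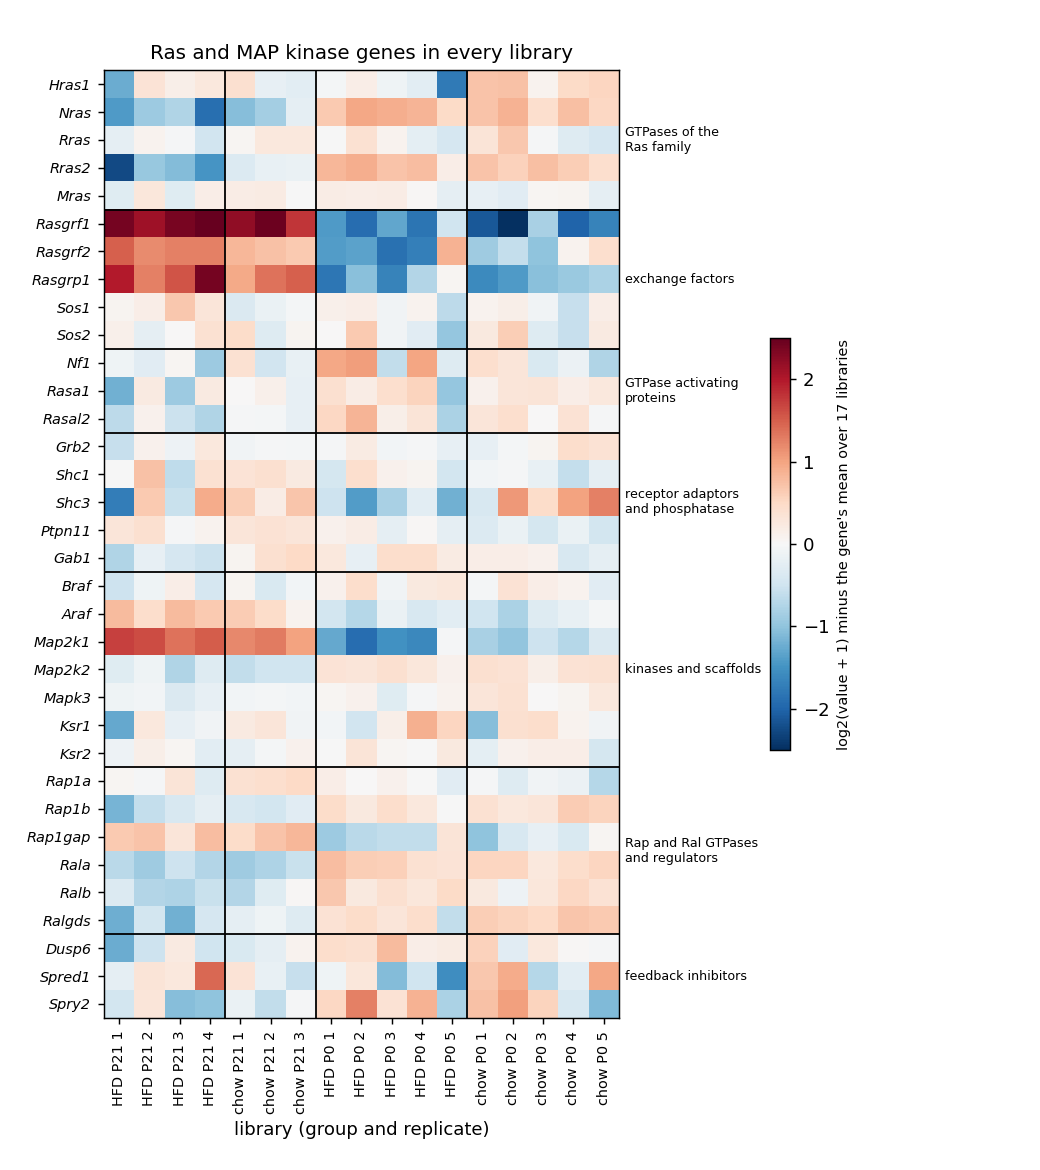
Each row is 1 gene and each column 1 library; colour gives log2(value + 1) minus the gene's mean over the 17 libraries, and colours saturate at the ends of the scale. Rasgrf1, Rasgrp1 and Map2k1 are red in the P21 libraries and mostly blue at P0, Nras and Rras2 run the other way, and HFD P0 replicate 5 differs from its group in Rasgrf2, Map2k1 and Ralgds.

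Between birth and weaning the listed exchange factors Rasgrf1, Rasgrf2 and Rasgrp1 and the kinase Map2k1 rose, while the GTPases Nras, Rras2, Rala and Ralb fell. Rasgrp2, an exchange factor outside the list, fell as well, with log2 changes of -1.65 in HFD and -1.34 in chow offspring. Rasgrf1 rose 14.0-fold in HFD and 16.0-fold in chow offspring on the value + 1 scale, which understates the change of genes near 0. The comparison of P21 with P0 was made in HFD and in chow offspring, which share no library. In HFD offspring 7 of the 33 members rose and 9 fell (48.5%), while 50.9% of all 14245 genes tested passed the same threshold, 24.7% rising and 26.2% falling. In chow offspring 8 rose and 7 fell (45.5%), against 36.1% of 14549 genes, 18.3% rising and 17.7% falling. The threshold was a limma adjusted p of 0.05 (Benjamini-Hochberg, two-sided) over all genes tested. The median log2 change of the members was -0.16 in HFD and -0.15 in chow offspring, beside -0.05 and -0.01 over all genes. The groups did not overlap in 11 of 33 members in HFD offspring (38.7% of all genes) and in 17 of 33 in chow offspring (37.2% of all genes).

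The genes called in either set of offspring were largely the same. Rasgrf1, Rasgrf2, Rasgrp1, Map2k1, Araf and Rap1gap rose in both. Nras, Rras2, Rala, Ralb, Rap1b, Ralgds and Map2k2 fell in both. These 13 are 39.4% of the 33, whereas 29.1% of 14109 genes tested in both comparisons were called the same way. The shared calls are 81.2% of the members' calls in HFD offspring and 86.7% in chow offspring, against 57% and 79.2% over all genes. No member was called in opposite directions.

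**Figure D2:**
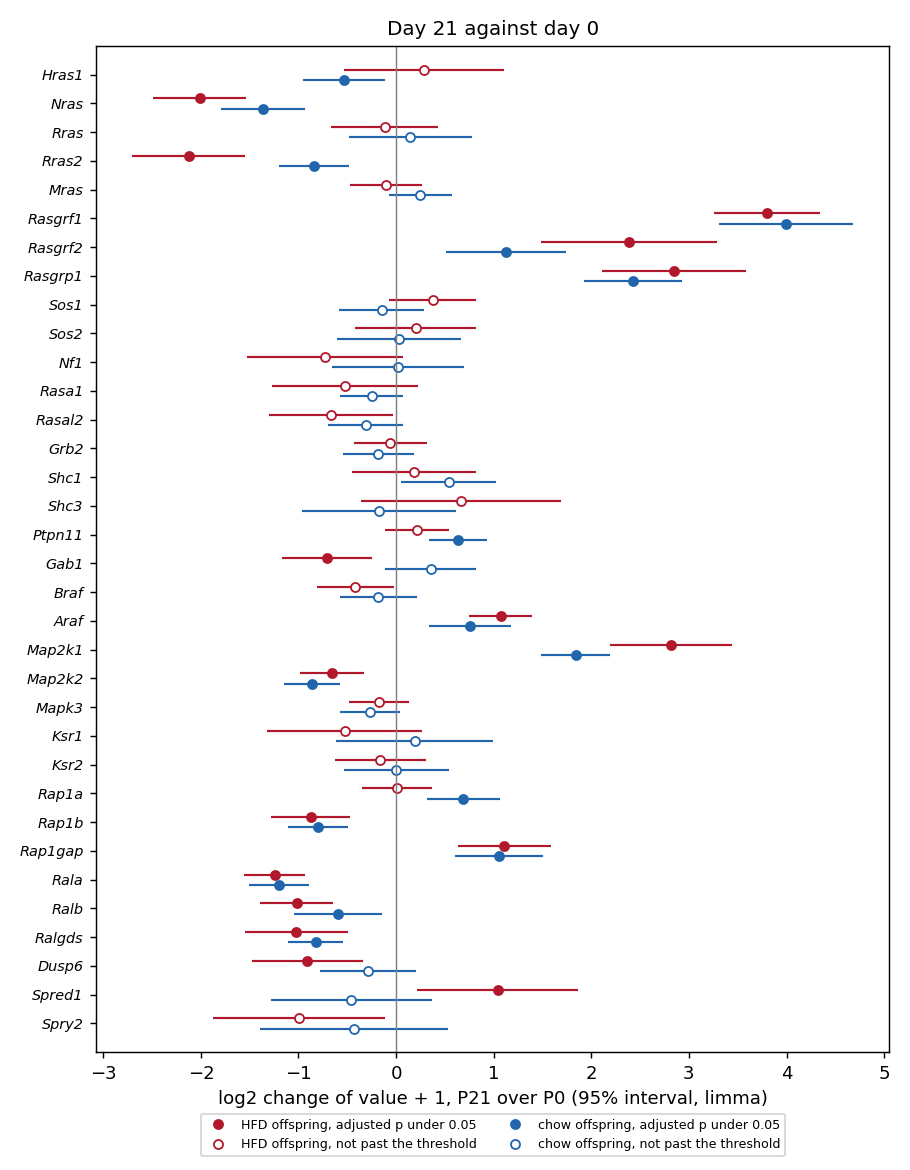
Each row is 1 gene; points give the log2 change of value + 1 at P21 over P0, with 95% intervals from limma, in HFD (red) and chow (blue) offspring, and filled points passed an adjusted p of 0.05. Rasgrf1 is farthest right, at 3.80 and 4.00, and Rras2 in HFD offspring is farthest left, at -2.12.

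Markers of other cells moved with age in the same libraries. The sum of the 7 markers of immature and dividing cells was 33.01 to 62.3 in HFD P21 and 55.01 to 74.5 in chow P21, against 608 to 1388 in HFD P0 and 960 to 1308 in chow P0, and all 7 fell in both comparisons. The sum of 10 oligodendrocyte markers was 4000 to 7347 in HFD P21 and 8236 to 18330 in chow P21, against 288 to 413 in HFD P0 and 405 to 1004 in chow P0. The sum of 6 POMC-neuron genes was 10183 to 13153 in HFD P21 and 4954 to 12780 in chow P21, against 243 to 1461 in HFD P0 and 290 to 1609 in chow P0. The part of these shifts in the members' changes was not tested. In such bulk samples fewer cells of a type and less RNA per cell cannot be told apart.

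Among the 5 Ras family GTPases, Nras and Rras2 fell in both comparisons. With Hras1, 40% of the 5 were called in HFD and 60% in chow offspring, against 50.9% and 36.1% of all genes. Nras encodes one of the classical Ras switches. In HFD offspring Nras measured 23.7, 34.5, 38.2 and 17.03 at P21, against 103, 129, 123, 118 and 91.0 at P0. In chow offspring Nras measured 30.6, 36.0 and 55.7 at P21, against 108, 119, 87.7, 110.5 and 93.3 at P0. Every P21 library was lower than every P0 library of the same diet. Nras had a log2 change of -2.01 ± 0.22 in HFD offspring (limma adjusted p = 6.93e-06) and -1.36 ± 0.20 in chow offspring (limma adjusted p = 0.000181). Rras2, also called TC21, encodes a Ras relative that activates PI3 kinase strongly. In HFD offspring Rras2 measured 5.30, 14.5, 13.1 and 9.75 at P21, against 52.6, 55.1, 48.1, 50.3 and 32.8 at P0. In chow offspring Rras2 measured 22.6, 25.5 and 25.9 at P21, against 47.9, 43.4, 49.2, 44.6 and 39.3 at P0. The P21 values were again below all P0 values, and the lowest were in HFD P21. Rras2 had a log2 change of -2.12 ± 0.27 in HFD offspring (limma adjusted p = 2.35e-05) and -0.84 ± 0.17 in chow offspring (limma adjusted p = 0.00167).

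Hras1 encodes another classical Ras and was lower at P21 in chow offspring alone, close to the threshold. In HFD offspring Hras1 measured 67.4, 203, 178 and 194 at P21, against 154, 180.2, 148, 134 and 46.4 at P0. In chow offspring Hras1 measured 212, 139.9 and 133 at P21, against 265, 268, 171, 225 and 232 at P0. The groups overlapped in both diets, and the HFD libraries held a low value at each age. Hras1 had a log2 change of 0.28 ± 0.38 in HFD offspring (limma adjusted p = 0.556) and -0.53 ± 0.19 in chow offspring (limma adjusted p = 0.0477). In chow offspring the call was lost without chow P0 replicates 1, 2, 4 or 5 or chow P21 replicates 2 or 3 (adjusted p = 0.0643 to 0.19), with edgeR (0.069), with a pseudocount of 0.1 (0.0505) and in a fit of all 17 libraries (0.274).

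Rras and Mras did not pass the test. Rras encodes a relative known for its part in integrin adhesion, and Mras encodes a partner of SHOC2 in the phosphatase complex that primes Raf. In HFD offspring Rras measured 8.07, 10.3, 9.36 and 6.59 at P21, against 9.45, 12.8, 10.2, 7.93 and 6.90 at P0. In chow offspring Rras measured 9.98, 11.7 and 11.6 at P21, against 12.2, 15.9, 9.39, 7.45 and 6.85 at P0. Its groups overlapped in both diets. Rras had a log2 change of -0.12 ± 0.26 in HFD offspring (limma adjusted p = 0.721) and 0.15 ± 0.29 in chow offspring (limma adjusted p = 0.729). In HFD offspring Mras measured 72.8, 109.8, 72.5 and 100.5 at P21, against 101, 101, 102, 90.8 and 76.1 at P0. In chow offspring Mras measured 102, 103 and 89.2 at P21, against 77.7, 73.7, 92.3, 93.8 and 76.9 at P0. These groups overlapped as well. Mras had a log2 change of -0.10 ± 0.17 in HFD offspring (limma adjusted p = 0.647) and 0.25 ± 0.15 in chow offspring (limma adjusted p = 0.212).

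Of the 5 listed exchange factors, the 3 that respond to calcium or diacylglycerol rose and the Sos pair did not pass the test. Those 3 are 60% of the role. Of all genes, 50.9% were called in HFD and 36.1% in chow offspring, with 24.7% and 18.3% rising. Rasgrf1 encodes a calcium and calmodulin dependent Ras activator of neurons, and the mouse gene is imprinted, with expression mainly of the paternal copy. In HFD offspring Rasgrf1 measured 388, 321, 385 and 518 at P21, against 26.9, 19.0, 29.5, 20.1 and 51.6 at P0. In chow offspring Rasgrf1 measured 347, 404 and 258 at P21, against 16.1, 11.4, 41.6, 17.5 and 22.3 at P0. The lowest P21 library lay several fold above the highest P0 library. Rasgrf1 had a log2 change of 3.80 ± 0.25 in HFD offspring (limma adjusted p = 8.6e-08) and 4.00 ± 0.32 in chow offspring (limma adjusted p = 2.24e-06), the highest of the 34 members in each comparison. Rasgrp1 encodes an activator that binds diacylglycerol. In HFD offspring Rasgrp1 measured 129, 77.4, 96.0 and 171 at P21, against 8.36, 14.8, 9.26, 18.7 and 32.9 at P0. In chow offspring Rasgrp1 measured 62.2, 83.03 and 92.0 at P21, against 9.92, 11.2, 15.0, 16.1 and 17.9 at P0. No P0 library reached a P21 value. Rasgrp1 had a log2 change of 2.84 ± 0.35 in HFD offspring (limma adjusted p = 1.54e-05) and 2.42 ± 0.23 in chow offspring (limma adjusted p = 8.67e-06).

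Rasgrf2 encodes the close relative of Rasgrf1. In HFD offspring Rasgrf2 measured 266, 214, 228 and 228 at P21, against 35.4, 36.8, 25.1, 28.2 and 173 at P0. In chow offspring Rasgrf2 measured 168, 157 and 148 at P21, against 50.8, 62.4, 46.5, 99.8 and 127 at P0. The groups did not overlap, though HFD P0 replicate 5 lay above the P21 values of chow offspring. Rasgrf2 had a log2 change of 2.39 ± 0.42 in HFD offspring (limma adjusted p = 0.00035) and 1.13 ± 0.29 in chow offspring (limma adjusted p = 0.0079). Without HFD P0 replicate 5 it was 2.87 in HFD offspring (limma adjusted p = 3.33e-09).

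Sos1 and Sos2, the exchange factors brought to receptors by Grb2, gave log2 changes of 0.37 ± 0.21 in HFD offspring (limma adjusted p = 0.144) and -0.15 ± 0.20 in chow offspring (limma adjusted p = 0.601) for Sos1. For Sos2 they were 0.20 ± 0.29 in HFD offspring (limma adjusted p = 0.579) and 0.03 ± 0.29 in chow offspring (limma adjusted p = 0.94).

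**Figure D3:**
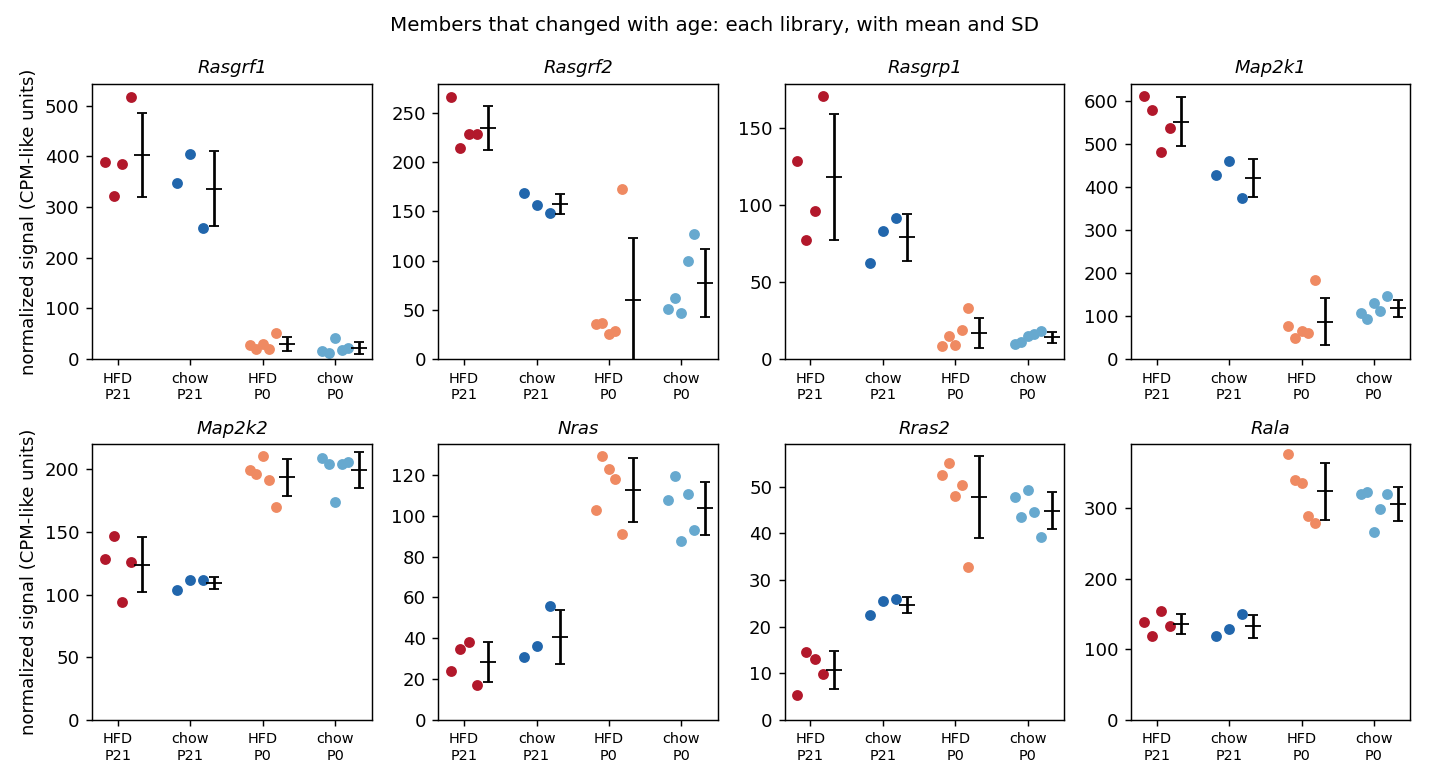
Each point is 1 library and the bars give the mean and SD of each group, in normalized signal on linear axes; the SD of Rasgrf2 in HFD P0 reaches below 0 and is drawn to the axis. Rasgrf1, Rasgrf2, Rasgrp1 and Map2k1 are high at P21, Map2k2, Nras, Rras2 and Rala are high at P0, and the high HFD P0 point for Rasgrf2 (173) and Map2k1 (183) is replicate 5.

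The kinases showed opposite changes in the MEK pair. Map2k1 encodes MEK1, which phosphorylates ERK. In HFD offspring Map2k1 measured 611, 579, 481 and 536 at P21, against 76.3, 49.1, 64.4, 60.7 and 183 at P0. In chow offspring Map2k1 measured 428, 459.8 and 373 at P21, against 106, 93.9, 130.2, 113 and 146 at P0. The P21 libraries lay above all P0 libraries, and within HFD P0 replicate 5 was the highest. Map2k1 had a log2 change of 2.82 ± 0.29 in HFD offspring (limma adjusted p = 3.73e-06) and 1.84 ± 0.17 in chow offspring (limma adjusted p = 5.31e-06). Without HFD P0 replicate 5 it was 3.13 in HFD offspring (limma adjusted p = 7.26e-10). Map2k2 encodes MEK2, the second ERK kinase. In HFD offspring Map2k2 measured 128, 147, 94.02 and 126 at P21, against 199.6, 197, 210.4, 192 and 170.0 at P0. In chow offspring Map2k2 measured 103, 112 and 112 at P21, against 209, 204, 174, 204 and 206 at P0. All P21 values were below all P0 values. Map2k2 had a log2 change of -0.66 ± 0.15 in HFD offspring (limma adjusted p = 0.00284) and -0.86 ± 0.13 in chow offspring (limma adjusted p = 0.000282).

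Of the Raf kinases, Araf rose and Braf did not pass the test. Araf encodes A-Raf, and its gene lies on chromosome X. In HFD offspring Araf measured 765, 606, 773 and 703 at P21, against 323, 272, 395, 337 and 368 at P0. In chow offspring Araf measured 693, 608 and 470.1 at P21, against 314, 258, 356, 392 and 429 at P0. The groups did not overlap. Araf had a log2 change of 1.07 ± 0.15 in HFD offspring (limma adjusted p = 5.72e-05) and 0.76 ± 0.19 in chow offspring (limma adjusted p = 0.00828). The call in chow offspring was lost without chow P21 replicate 1, at a log2 change of 0.63 (adjusted p = 0.0514). Braf encodes the Raf with the highest kinase activity, and its log2 change was -0.42 ± 0.18 in HFD offspring (limma adjusted p = 0.0719) and -0.18 ± 0.18 in chow offspring (limma adjusted p = 0.466). In HFD offspring Braf passed without HFD P21 replicate 3 (-0.55, adjusted p = 0.0263) and in the fit of all 17 libraries (-0.42, adjusted p = 0.0488).

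Mapk3, which encodes ERK1, had log2 changes of -0.17 ± 0.14 in HFD offspring (limma adjusted p = 0.332) and -0.27 ± 0.14 in chow offspring (limma adjusted p = 0.155). The scaffold Ksr1 had -0.53 ± 0.37 in HFD offspring (limma adjusted p = 0.25) and 0.19 ± 0.37 in chow offspring (limma adjusted p = 0.719), from means of 1.66 to 2.77 in the 4 groups. The scaffold Ksr2, whose loss causes obesity in mice, had -0.16 ± 0.22 in HFD offspring (limma adjusted p = 0.558) and 0.00 ± 0.25 in chow offspring (limma adjusted p = 0.997).

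All 6 Rap and Ral genes were called in chow offspring (36.1% of all genes) and 5 of 6 in HFD offspring (50.9% of all genes). Rala encodes a GTPase that acts on the exocyst in vesicle delivery. In HFD offspring Rala measured 138, 119, 153 and 133 at P21, against 377, 340.2, 335, 288 and 279 at P0. In chow offspring Rala measured 118, 129 and 150.0 at P21, against 319, 323, 266, 299 and 320.3 at P0. The ages did not overlap, and the values of the diets overlapped at each age. Rala had a log2 change of -1.24 ± 0.14 in HFD offspring (limma adjusted p = 1.07e-05) and -1.20 ± 0.14 in chow offspring (limma adjusted p = 4.19e-05). Ralb encodes its relative. In HFD offspring Ralb measured 31.8, 24.1, 23.2 and 27.1 at P21, against 65.3, 48.0, 53.5, 49.5 and 57.0 at P0. In chow offspring Ralb measured 23.9, 32.7 and 41.0 at P21, against 48.2, 36.9, 49.6, 58.6 and 52.5 at P0. The ages overlapped in chow offspring and were apart in HFD offspring. Ralb had a log2 change of -1.02 ± 0.17 in HFD offspring (limma adjusted p = 0.000284) and -0.60 ± 0.21 in chow offspring (limma adjusted p = 0.0394). The chow call was lost with 6 of the 8 libraries left out in turn, namely chow P0 replicates 1, 3, 4 and 5 and chow P21 replicates 1 and 2 (adjusted p = 0.0581 to 0.195).

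Ralgds encodes a Ras effector that activates Ral proteins. In HFD offspring Ralgds measured 59.5, 101, 60.1 and 105 at P21, against 181, 192, 174, 191 and 91.8 at P0. In chow offspring Ralgds measured 120.5, 129.97 and 112 at P21, against 216, 208, 200.1, 228 and 221 at P0. In chow offspring the ages did not overlap, and in HFD offspring they overlapped only through HFD P0 replicate 5. Ralgds had a log2 change of -1.02 ± 0.25 in HFD offspring (limma adjusted p = 0.00347) and -0.82 ± 0.13 in chow offspring (limma adjusted p = 0.000359).

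Rap1a and Rap1b encode a pair of Rap GTPases that act in adhesion and can engage B-Raf. In HFD offspring Rap1b measured 74.6, 111, 128 and 144 at P21, against 231, 200.4, 229, 202 and 168 at P0. In chow offspring Rap1b measured 127, 122 and 139 at P21, against 219, 201, 207, 261 and 249.9 at P0. All P21 values lay below all P0 values. Rap1b had a log2 change of -0.88 ± 0.19 in HFD offspring (limma adjusted p = 0.00154) and -0.80 ± 0.14 in chow offspring (limma adjusted p = 0.000852). In HFD offspring Rap1a measured 75.1, 70.8, 91.1 and 58.0 at P21, against 81.1, 73.5, 77.7, 72.4 and 59.1 at P0. In chow offspring Rap1a measured 94.5, 97.4 and 102 at P21, against 70.7, 58.1, 68.1, 65.5 and 44.0 at P0. Rap1a was higher at P21 in every chow library, while the HFD ages overlapped. Rap1a had a log2 change of 0.01 ± 0.17 in HFD offspring (limma adjusted p = 0.969) and 0.69 ± 0.17 in chow offspring (limma adjusted p = 0.00775).

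Rap1gap encodes the protein that turns Rap off. In HFD offspring Rap1gap measured 186, 193, 144 and 200.5 at P21, against 61.7, 73.0, 76.8, 75.98 and 147 at P0. In chow offspring Rap1gap measured 162, 194 and 209 at P21, against 58.1, 88.7, 101, 90.4 and 122 at P0. The chow ages did not overlap, and the HFD ages overlapped only at replicate 5 of P0. Rap1gap had a log2 change of 1.11 ± 0.22 in HFD offspring (limma adjusted p = 0.000928) and 1.06 ± 0.21 in chow offspring (limma adjusted p = 0.00175).

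None of the 3 GTPase activating proteins passed the test in either comparison, while 50.9% of all genes did in HFD and 36.1% in chow offspring. The log2 change of Nf1, which encodes neurofibromin, was -0.73 ± 0.37 in HFD offspring (limma adjusted p = 0.118) and 0.02 ± 0.31 in chow offspring (limma adjusted p = 0.968). For Rasa1, which encodes p120 RasGAP, it was -0.53 ± 0.35 in HFD offspring (limma adjusted p = 0.222) and -0.25 ± 0.15 in chow offspring (limma adjusted p = 0.204). For Rasal2, a further Ras GTPase activating protein, it was -0.67 ± 0.30 in HFD offspring (limma adjusted p = 0.0751) and -0.31 ± 0.18 in chow offspring (limma adjusted p = 0.194). In HFD offspring all 3 were past the threshold once HFD P0 replicate 5 was left out, at -0.91, -0.80 and -0.92 for Nf1, Rasa1 and Rasal2 (limma adjusted p = 0.0417, 0.0247 and 0.00293). Nf1 also passed without HFD P0 replicate 3 (-0.98, adjusted p = 0.0311), and Rasal2 without HFD P21 replicate 2 (-0.86, adjusted p = 0.0393) and in the fit of all 17 libraries (-0.67, adjusted p = 0.0324).

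Of the 4 receptor adaptors and the phosphatase Ptpn11, Ptpn11 rose in chow offspring and Gab1 fell in HFD offspring. Each is 20% of the role, against 36.1% of all genes called in chow and 50.9% in HFD offspring. Ptpn11 encodes SHP2, a phosphatase that carries leptin and growth factor signals to Ras. In HFD offspring Ptpn11 measured 151, 161, 119 and 131 at P21, against 132, 140.2, 105, 125 and 104 at P0. In chow offspring Ptpn11 measured 151, 156 and 151 at P21, against 95.8, 108, 90.1, 109.5 and 88.7 at P0. Every chow P21 library was above every chow P0 library, while the HFD ages overlapped. Ptpn11 had a log2 change of 0.21 ± 0.15 in HFD offspring (limma adjusted p = 0.265) and 0.64 ± 0.14 in chow offspring (limma adjusted p = 0.00323). Gab1 encodes a docking protein for SHP2. In HFD offspring Gab1 measured 12.4, 18.7, 15.9 and 14.6 at P21, against 26.2, 18.7, 29.5, 29.8 and 25.04 at P0. In chow offspring Gab1 measured 22.7, 28.8 and 31.1 at P21, against 24.4, 24.5, 23.5, 16.2 and 18.4 at P0. The HFD ages overlapped at 1 library each, and in chow offspring the P21 values were the higher ones with overlap. Gab1 had a log2 change of -0.71 ± 0.22 in HFD offspring (limma adjusted p = 0.0139) and 0.36 ± 0.22 in chow offspring (limma adjusted p = 0.218).

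Grb2, Shc1 and Shc3 did not pass. Grb2, the adaptor that carries Sos, had log2 changes of -0.06 ± 0.18 in HFD offspring (limma adjusted p = 0.798) and -0.18 ± 0.17 in chow offspring (limma adjusted p = 0.427). Shc1, the widely expressed Shc adaptor, had 0.18 ± 0.30 in HFD offspring (limma adjusted p = 0.629) and 0.54 ± 0.22 in chow offspring (limma adjusted p = 0.0775). Shc3, the neuronal Shc, had 0.66 ± 0.48 in HFD offspring (limma adjusted p = 0.259) and -0.18 ± 0.36 in chow offspring (limma adjusted p = 0.736). Without HFD P21 replicate 1, Shc3 passed in HFD offspring at a log2 change of 1.18 (adjusted p = 0.0274).

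The 3 feedback inhibitors were not called in chow offspring, and Dusp6 and Spred1 were called in opposite directions in HFD offspring. That is 66.7% of the role in HFD offspring, against 50.9% of all genes there and 36.1% in chow offspring. Dusp6 encodes a phosphatase that inactivates ERK. In HFD offspring Dusp6 measured 10.3, 17.6, 30.1 and 17.9 at P21, against 35.2, 34.03, 45.3, 29.1 and 29.8 at P0. In chow offspring Dusp6 measured 19.5, 21.8 and 27.4 at P21, against 39.0, 20.9, 31.1, 26.3 and 25.1 at P0. The HFD ages overlapped only at P21 replicate 3. Dusp6 had a log2 change of -0.91 ± 0.27 in HFD offspring (limma adjusted p = 0.0108) and -0.29 ± 0.23 in chow offspring (limma adjusted p = 0.355). Spred1 encodes an inhibitor that brings neurofibromin to the membrane. In HFD offspring Spred1 measured 16.9, 25.4, 24.4 and 55.8 at P21, against 18.4, 24.5, 8.98, 13.9 and 6.20 at P0. In chow offspring Spred1 measured 25.6, 17.5 and 13.2 at P21, against 32.5, 38.8, 11.9, 16.5 and 40.4 at P0. The ages overlapped in both diets. Spred1 had a log2 change of 1.04 ± 0.39 in HFD offspring (limma adjusted p = 0.0366) and -0.46 ± 0.38 in chow offspring (limma adjusted p = 0.375). The HFD call was lost without HFD P0 replicates 3, 4 or 5 or HFD P21 replicates 2, 3 or 4 (adjusted p = 0.0568 to 0.14).

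Spry2 encodes Sprouty2, an inhibitor of receptor signalling to Ras. In HFD offspring Spry2 measured 3.54, 6.68, 2.00 and 2.13 at P21, against 7.92, 14.0, 6.98, 10.4 and 2.60 at P0. In chow offspring Spry2 measured 4.58, 3.09 and 5.10 at P21, against 9.31, 11.7, 8.16, 3.75 and 1.92 at P0. The ages overlapped. Spry2 had a log2 change of -0.996 ± 0.41 in HFD offspring (limma adjusted p = 0.0558) and -0.43 ± 0.45 in chow offspring (limma adjusted p = 0.483). In HFD offspring it passed without HFD P0 replicate 5 (-1.31, adjusted p = 0.00533) and without HFD P21 replicate 2 (-1.28, adjusted p = 0.025).

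Ratios of related members within a library show how the balance inside a step of the cascade differed with age. They were taken per kilobase of merged exon, so their size depends on that length, and they are descriptive. Map2k1 over Map2k2 was 6.58 to 8.54 in HFD P21 and 5.57 to 6.92 in chow P21, against 0.417 to 1.801 in HFD P0 and 0.767 to 1.25 in chow P0. Map2k1 was the more abundant of the pair in every P21 library, and HFD P0 replicate 5 (1.801) was the P0 library nearest to them. Araf over Braf was 25.4 to 42.7 in HFD P21 and 19.2 to 30.8 in chow P21, against 7.75 to 16.3 in HFD P0 and 7.80 to 20.3 in chow P0. Rasgrf1 over Sos1 was 5.39 to 9.39 in HFD P21 and 6.04 to 10.2 in chow P21, against 0.378 to 1.85 in HFD P0 and 0.229 to 1.00 in chow P0. In most P0 libraries the receptor-linked Sos1 was the higher of the pair, and in all P21 libraries the calcium-linked Rasgrf1 was.

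Rap1a over Rap1b was 0.446 to 1.11 in HFD P21 and 0.812 to 0.880 in chow P21, against 0.375 to 0.406 in HFD P0 and 0.195 to 0.363 in chow P0. Rras over Rras2 was 2.14 to 4.83 in HFD P21 and 1.40 to 1.45 in chow P21, against 0.4996 to 0.737 in HFD P0 and 0.529 to 1.16 in chow P0. The ages did not overlap for this pair in either diet, and the HFD P21 range lay above the chow P21 range. Sos1 over Sos2 overlapped between all groups, at 1.71 to 2.92 in HFD P21, 0.997 to 2.04 in chow P21, 1.27 to 2.36 in HFD P0 and 1.29 to 2.17 in chow P0.

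**Figure D4:**
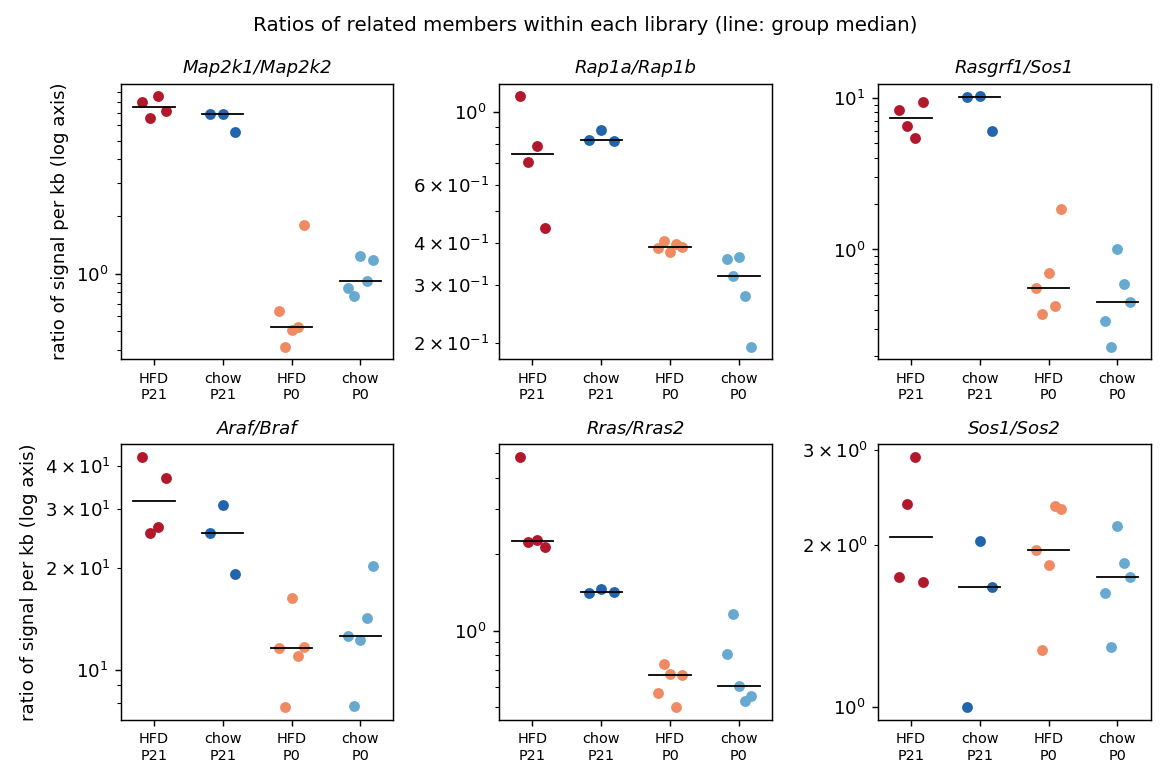
Each point is 1 library and lines give group medians; the log axes show the ratio of signal per kilobase of exon for 6 pairs of related genes. The P21 and P0 libraries separate within each diet for Map2k1/Map2k2, Rasgrf1/Sos1, Rap1a/Rap1b and Rras/Rras2 and overlap for Sos1/Sos2.

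Setting HFD against chow offspring at P21 asks how the dam's diet is reflected at weaning. None of the 33 members passed the adjusted threshold, which 0.178% of 14070 genes did. At an unadjusted limma p under 0.05 there were 7 members and 2393 genes (17%), and edgeR called 0 members. The same number of members had groups that did not overlap, 7 of 33, against 16.1% of all genes. Of these Gab1, Ralgds, Rap1a and Rras2 were lower and Map2k1, Rasgrf2 and Sos1 higher in all HFD libraries, while 7.78% of all genes were lower and 8.34% higher in that way. The median log2 change of the 33 was -0.17, beside -0.02 over all genes, with 11 members above 0 and 22 below. The count of members past the threshold stayed at 0 with any 1 of the 7 libraries left out.

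Rasgrf2, Rras2 and Gab1 had the smallest p-values. Rasgrf2 measured 266, 214, 228 and 228 in HFD offspring, against 168, 157 and 148 in chow offspring. All HFD values were the higher ones, and the log2 change was 0.56 ± 0.13 (95% interval 0.28 to 0.85; limma adjusted p = 0.0891). Rras2 measured 5.30, 14.5, 13.1 and 9.75 in HFD offspring, against 22.6, 25.5 and 25.9 in chow offspring. All HFD values were the lower ones, and the log2 change was -1.22 ± 0.31 (-1.89 to -0.54; adjusted p = 0.106). Gab1 measured 12.4, 18.7, 15.9 and 14.6 in HFD offspring, against 22.7, 28.8 and 31.1 in chow offspring. Its HFD values were also all lower, and the log2 change was -0.80 ± 0.23 (-1.29 to -0.31; adjusted p = 0.125).

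No role had a member past the threshold. Log2 changes were above 0 in 5 of 5 exchange factors (Sos2 at 0.0021), 4 of 7 kinases and scaffolds, 1 of 6 Rap and Ral genes and 1 of 3 feedback inhibitors. They were below 0 in all 5 Ras GTPases with Hras1, all 3 GTPase activating proteins, the 4 adaptors and Ptpn11, while over all genes 6740 were above 0 and 7330 below. Some of these signs rest on values near 0, such as -0.02 for Grb2 and -0.10 for Hras1. Sos2 was at -0.03 with edgeR and at -0.0028 without chow P21 replicate 3. Nras measured 23.7, 34.5, 38.2 and 17.03 in HFD offspring, against 30.6, 36.0 and 55.7 in chow offspring, and its groups overlapped (-0.53 ± 0.29, adjusted p = 0.381). Map2k1 measured 611, 579, 481 and 536 in HFD offspring, against 428, 459.8 and 373 in chow offspring, with no overlap (0.39 ± 0.13, adjusted p = 0.184). Among the inhibitors the log2 changes were -0.34 ± 0.31 for Dusp6, 0.59 ± 0.36 for Spred1 and -0.29 ± 0.38 for Spry2 (adjusted p = 0.618, 0.429 and 0.745). Sums of the markers of other cells lay apart between these groups in 4 lists. The oligodendrocyte sum was 4000 to 7347 in HFD P21 and 8236 to 18330 in chow P21, and the astrocyte and tanycyte sum was 1381 to 2400 in HFD P21 and 2662 to 4018 in chow P21. The microglia sum was 132 to 188 in HFD P21 and 229 to 359.7 in chow P21, and the endothelial and mural sum was 47.8 to 70.05 in HFD P21 and 104 to 143 in chow P21. The POMC-neuron sum was 10183 to 13153 in HFD P21, and 5915, 4954 and 12780 in chow P21 replicates 1, 2 and 3. All 6 of its genes had log2 changes above 0 (median 0.60). Of these Cartpt passed the threshold, at 1.91 ± 0.23 (limma adjusted p = 0.0137), which 0.178% of all genes did. The part of all these cells in the members' differences was not tested.

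**Figure D5:**
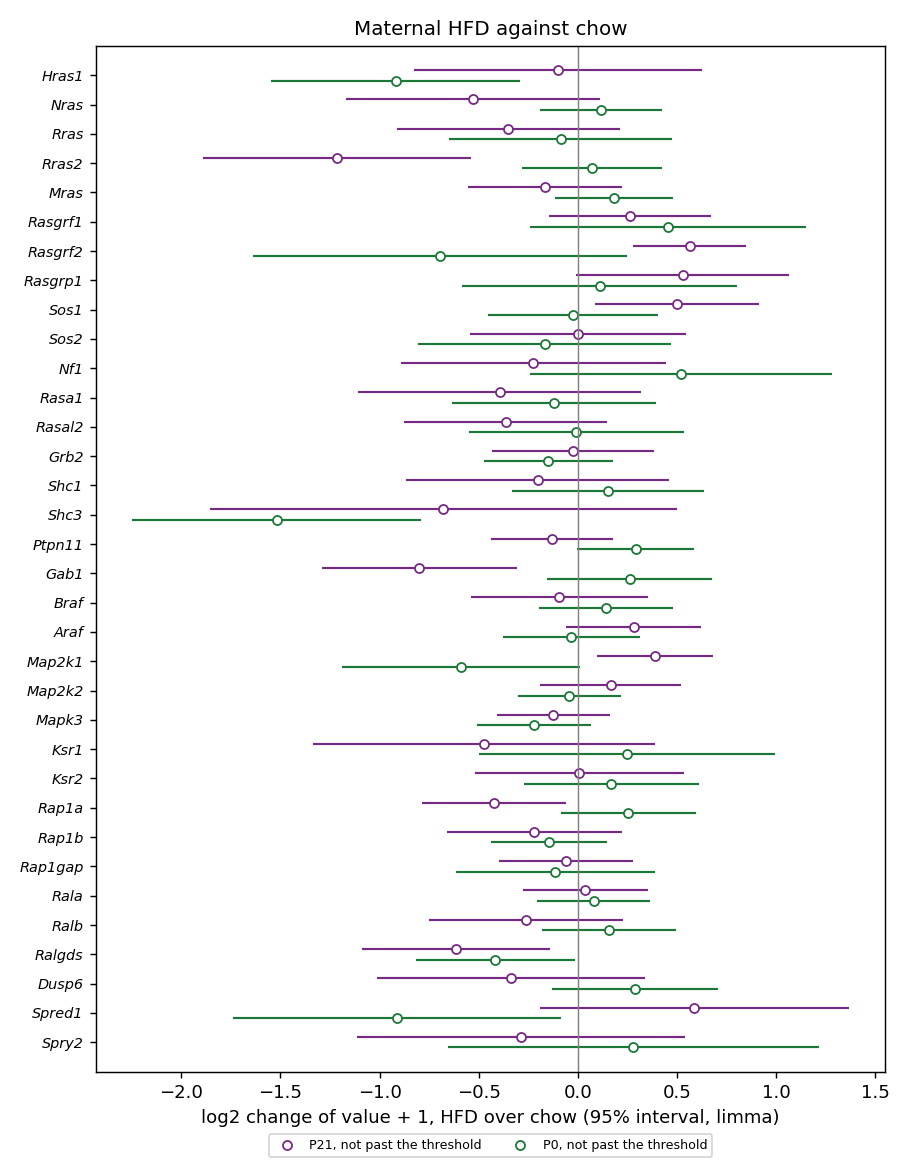
Each row is 1 gene; points give the log2 change of value + 1 in HFD over chow offspring, with 95% intervals from limma, at P21 (purple) and P0 (green), and every point is open because none passed an adjusted p of 0.05. Shc3 at P0 (-1.52) and Rras2 at P21 (-1.22) lie farthest left.

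At P0 none of the 33 members passed the threshold between HFD and chow offspring either, which 0.291% of 14086 genes did. At an unadjusted limma p under 0.05 there were 3 members and 1307 genes (9.28%), and edgeR called 0 members. The median log2 change was 0.07, beside 0.00 over all genes, and Ralgds was the single member of the 33 whose groups did not overlap (2.45% of all genes), with the HFD values lower (1.71%).

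Shc3, Hras1 and Spred1 had the smallest p-values. Shc3 measured 3.98, 1.70, 3.08, 4.96 and 2.11 in HFD offspring, against 4.41, 14.1, 8.81, 13.3 and 16.2 in chow offspring. Only the lowest chow library fell within the HFD range, and the log2 change was -1.52 ± 0.34 (-2.25 to -0.79; limma adjusted p = 0.0842). That chow library is replicate 1, and without it the change was -1.79 and past the threshold (adjusted p = 0.0294). Hras1 measured 154, 180.2, 148, 134 and 46.4 in HFD offspring, against 265, 268, 171, 225 and 232 in chow offspring. The groups overlapped at 1 library each, and the log2 change was -0.92 ± 0.29 (-1.55 to -0.29; adjusted p = 0.298). Without HFD P0 replicate 5, its lowest library, the change was -0.58 (adjusted p = 0.0808). Spred1 measured 18.4, 24.5, 8.98, 13.9 and 6.20 in HFD offspring, against 32.5, 38.8, 11.9, 16.5 and 40.4 in chow offspring. The groups overlapped, and the log2 change was -0.91 ± 0.39 (-1.74 to -0.09; adjusted p = 0.472).

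Ralgds measured 181, 192, 174, 191 and 91.8 in HFD offspring, against 216, 208, 200.1, 228 and 221 in chow offspring, at a log2 change of -0.42 ± 0.19 (adjusted p = 0.51). Every HFD value was lower, with replicate 5 far below the others, and without that library the change was -0.22 (adjusted p = 0.346). The other Ras GTPases had log2 changes of 0.12 for Nras, -0.09 for Rras, 0.07 for Rras2 and 0.18 for Mras, and Dusp6 and Spry2 had 0.29 and 0.28 (Spry2 at 0.59 without HFD P0 replicate 5, adjusted p = 0.465). Map2k1 and Rasgrf2 turned on HFD P0 replicate 5. Map2k1 changed by -0.59 ± 0.28 with it (limma adjusted p = 0.544) and by -0.90 without it (adjusted p = 0.0154). Rasgrf2 changed by -0.69 ± 0.44 with it (adjusted p = 0.664) and by -1.18 without it (adjusted p = 0.0486). Over all genes, 1 rose and 40 fell with that library, and 26 rose and 109 fell without it. The POMC-neuron sum was 243 to 1461 in HFD P0 and 290 to 1609 in chow P0. Without HFD P0 replicate 5, which held the 1461, the HFD P0 sums were 243 to 433. The oligodendrocyte sum was 288 to 413 in HFD P0 and 405 to 1004 in chow P0. All 8 oligodendrocyte markers tested had log2 changes below 0 (median -0.42), none past the threshold. Below 0 were also 8 of 9 astrocyte and tanycyte markers, 7 of 8 of other hypothalamic neurons and 4 of 6 POMC-neuron genes. Above 0 were 5 of 5 fibroblast and meningeal markers, 6 of 7 of immature and dividing cells, 6 of 7 endothelial and mural and 4 of 7 microglia markers. None of these passed the threshold. The part of these cells in the members' differences was not tested.

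The diet by age interaction tests whether the diet difference at P21 was unlike that at P0. None of the 33 members passed, and 0.0266% of 15037 genes did. At an unadjusted limma p under 0.05 there were 7 members and 2290 genes (15.2%), and edgeR called 0 members. Rras2 had the smallest p, with a difference of log2 changes of -1.29 ± 0.33 (P21 minus P0; -1.97 to -0.60; adjusted p = 0.0973). Its diet change was -1.22 at P21 and 0.07 at P0. For Gab1 the interaction was -1.06 ± 0.29 (-1.67 to -0.45; adjusted p = 0.12), with diet changes of -0.80 at P21 and 0.26 at P0. For Rap1a it was -0.68 ± 0.24 (-1.17 to -0.19; adjusted p = 0.19), with -0.42 at P21 and 0.26 at P0.

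Without HFD P0 replicate 5, 3 members passed the interaction test. These were Rras2 (-1.41, limma adjusted p = 0.0257), Map2k1 (1.29, adjusted p = 0.00645) and Rasgrf2 (1.75, adjusted p = 0.0159). With it, Map2k1 was at 0.98 ± 0.38 (adjusted p = 0.232) and Rasgrf2 at 1.26 ± 0.58 (adjusted p = 0.315). Over all genes, 2 rose and 2 fell with that library, and 301 rose and 256 fell without it. The HFD P0 POMC-neuron sums without that library were 243 to 433, against 290 to 1609 in chow P0. The part of this difference in the interaction was not tested.

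Other genes of the pathway, 88 by list of which 86 were in the table, moved with age as well. In HFD offspring 26 rose and 26 fell of 84 tested (61.9%, against 50.9% of all genes), and in chow offspring 23 rose and 20 fell of 86 (50%, against 36.1%). Among ERK feedback and transcriptional targets 5 rose and 5 fell of 17 in HFD offspring (58.8%), and 4 rose and 5 fell of 17 in chow offspring (52.9%). Egr1, an immediate early transcription factor induced by ERK, measured 70.4, 59.5, 77.8 and 49.1 in HFD P21, against 8.44, 15.0, 9.84, 8.77 and 11.53 in HFD P0. In chow offspring Egr1 measured 32.7, 36.6 and 68.2 at P21, against 5.80, 11.6, 11.6, 8.84 and 13.3 at P0. No P0 library reached a P21 value, and the log2 change was 2.48 ± 0.22 in HFD offspring (limma adjusted p = 1.14e-06) and 2.03 ± 0.31 in chow offspring (limma adjusted p = 0.000239). Myc, a growth regulator stabilised by ERK, had log2 changes of -2.90 ± 0.21 in HFD offspring (limma adjusted p = 2.1e-07) and -3.13 ± 0.23 in chow offspring (limma adjusted p = 1.4e-06). Dusp4, a nuclear ERK phosphatase, had log2 changes of -3.30 ± 0.26 in HFD offspring (limma adjusted p = 4.46e-07) and -3.04 ± 0.42 in chow offspring (limma adjusted p = 0.000129).

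Among further Ras, Rap and Ral regulators and effectors 14 rose and 14 fell of 45 in HFD offspring (62.2%, against 50.9% of all genes), and 12 rose and 10 fell of 46 in chow offspring (47.8%, against 36.1%). Rasd1, a Ras relative induced by glucocorticoids, had log2 changes of 2.89 ± 0.28 in HFD offspring (limma adjusted p = 2.08e-06) and 3.14 ± 0.35 in chow offspring (limma adjusted p = 2.49e-05). Rgl1, a Ral exchange factor and relative of Ralgds, had 1.29 ± 0.19 in HFD offspring (limma adjusted p = 7.19e-05) and 1.8 ± 0.25 in chow offspring (limma adjusted p = 0.000141). Rasgrp2, an exchange factor for Rap, had -1.65 ± 0.19 in HFD offspring (limma adjusted p = 8.74e-06) and -1.34 ± 0.16 in chow offspring (limma adjusted p = 5.23e-05). Rit2, a neuronal Ras relative, had log2 changes of 1.97 ± 0.20 in HFD offspring (limma adjusted p = 3.63e-06) and 1.16 ± 0.27 in chow offspring (limma adjusted p = 0.00531).

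Among the other MAP kinases and their substrates 7 rose and 7 fell of 22 in HFD offspring (63.6%, against 50.9% of all genes), and 7 rose and 5 fell of 23 in chow offspring (52.2%, against 36.1%). Mapk10, which encodes the neuronal JNK3, had log2 changes of 1.22 ± 0.14 in HFD offspring (limma adjusted p = 1.31e-05) and 0.66 ± 0.14 in chow offspring (limma adjusted p = 0.00271). Map2k4, a kinase upstream of JNK, had 1.08 ± 0.17 in HFD offspring (limma adjusted p = 0.000177) and 0.87 ± 0.15 in chow offspring (limma adjusted p = 0.000603). Mapk7, which encodes ERK5, had -1.62 ± 0.23 in HFD offspring (limma adjusted p = 7.34e-05) and -1.73 ± 0.20 in chow offspring (limma adjusted p = 2.96e-05). Rps6ka6, which encodes the RSK4 kinase, had -1.64 ± 0.22 in HFD offspring (limma adjusted p = 4.36e-05) and -2.25 ± 0.25 in chow offspring (limma adjusted p = 2.65e-05).

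With diet, 1 of the 83 other pathway genes tested passed at P0 (1.2%, against 0.291% of all genes). At P21 and in the interaction 0 passed, against 0.178% and 0.0266% of all genes. Shc2, an adaptor of the Shc family found in neurons, measured 23.6, 25.9, 19.6, 19.4 and 12.3 in HFD P0, against 43.4, 56.0, 46.1, 86.4 and 84.1 in chow P0. All HFD values lay below all chow values. The log2 change was -1.58 ± 0.24 (limma adjusted p = 0.0119), near that of its relative Shc3 (-1.52), which did not pass (limma adjusted p = 0.0842). The relative Shc1 had a log2 change of 0.15 at P0 (limma adjusted p = 0.885). Shc2 at P21 measured 20.8, 64.8, 41.8 and 81.0 in HFD offspring, against 62.0, 24.9 and 17.8 in chow offspring, with overlap (0.60 ± 0.46, adjusted p = 0.541).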

How the data were processed

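RNA pulled down with HA-tagged ribosomes from the mediobasal hypothalamus was sequenced in 17 libraries. Libraries were Nextera XT preparations sequenced as single reads of 50 bases, per the labels' protocols. The submitters' processing notes name edgeR, FastQC, HTSeq 0.6.1, Picard 1.80 and TopHat2 2.0.13 with build mm10, while their settings, gene filter and strand handling were not given in the sources used here. Deposited values are normalized signal, close to CPM (counts scaled to library size), with 2 decimals, and each library's values lie on steps of 1 read. All non-zero values below 50 (100%) fell on whole reads to within rounding, against 21.8% to 36.3% of values placed at random, which gave depths of 22.4 to 37.1 M reads (M, mega). A check of the lowest values alone found whole reads in 6 of the 17 libraries and not in the other 11, where rounding to 2 decimals is worth 0.118 to 0.182 of a read (0.109 to 0.125 in the 6), so reads there rest on the step fitted over all values below 50. A value of 0 allows up to 3 reads, or 0.0826 to 0.138 units, for counting error only.

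Each comparison was fitted with limma 3.58.1 (R 4.3.3, intensity trend, non-robust prior) on log2(value + 1) over its own libraries, and the interaction over all 17. A gene was tested if the number of libraries with a value above 1 reached the size of the smaller group. Adjusted p-values are Benjamini-Hochberg over all genes tested, two-sided, at 0.05. Errors are SE for log2 changes and SD for levels. An edgeR 4.0.16 quasi-likelihood test on the reads so recovered in all 17 libraries, added after the data were seen, called 33 genes between diets at P0, 15 at P21, 4949 with age in chow offspring, 6780 with age in HFD offspring and 14 for the interaction. The limma step was run on simulated data with 200 changed genes. That simulation held a single setting of spread and no differences in cell content, so it does not show how the test performs on these libraries. Symbols were matched to GENCODE M21 (15216 of 15355 genes, 99.09%), and promoter windows are RefSeq GRCm38.p6. Other settings tried were 2 pseudocounts, filters on low values, rescaling, a joint fit, a replicate block, a GC correction and leaving out each library in turn.

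The members and lists were chosen with earlier results of these data known. Values in every library are given for members past the threshold (at most 8 in each direction and comparison), for the 3 with the smallest p where fewer than 3 passed, and always for the Ras GTPases and feedback inhibitors. From the other pathway lists, at most 3 genes in each direction and comparison could be named. Ralgds at P0, Nras and Map2k1 in the diet comparisons, and Shc2 at P21 were added after their values were seen.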

Additional observations from a re-analysis of the deposited data

Results flagged for a closer look

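In 5 of 102 sets of 1 member in 1 group, a single library lay far from the rest of its group, a pattern that chance gives in about 1 in 20 sets. HFD P0 replicate 5 accounts for 4 of the 5. It was highest for Map2k1 at 183.24, against 49.1 to 76.3 in the other HFD P0 libraries. The same library was highest for Rasgrf2 at 172.53, against 25.1 to 36.8, and for Rap1gap at 147.43, against 61.7 to 76.8. It was lowest for Ralgds at 91.75, against 174 to 192. Pomc in this library was 1057, against 90.7 to 246 in the others of its group and 146 to 1308 in chow P0 libraries. The part of Pomc content in the members' values was not tested. Chow P0 replicate 3 was lowest for Map2k2 at 174.04, against 204 to 209 in the other chow P0 libraries.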

How the results depend on the processing

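The members' counts with age kept within 1.5 times of their main value in every setting tried. Sign was checked for members called in a comparison, at most 8 each way, or the 3 with the smallest p, and none turned round. Members not so checked did, such as Hras1 with age in HFD offspring, at 0.28 and at -0.06 without HFD P0 replicate 5. Among the checked members, 389 of 396 pairs of a member's change and a setting kept their side of the threshold under the settings other than leaving out 1 library. When 1 library was left out, 344 such pairs kept it, 19 lost a call and 2 gained one. With 1 library left out in turn, the number of members called was 0 to 2 between diets at P0 (1 without chow P0 replicate 1, 2 without HFD P0 replicate 5), 0 to 0 at P21, 15 to 19 with age in HFD offspring, 13 to 15 with age in chow offspring and 0 to 3 in the interaction (3 without HFD P0 replicate 5). The labels do not say that replicate numbers pair libraries. Deviations of same-numbered libraries correlated at 0.172, 0.273 and 0.492 in 3 of 5 pairs at P0, each closest to its own number, at -0.039 and -0.173 in the other 2, and at -0.098 to 0.115 in the other comparisons, so not every pair was over 0.1 and the numbers were not taken as pairing. With the replicate block, 0 members were called between diets at either age, 18 with age in HFD offspring (a fit in which HFD P0 replicate 5, with no partner, adds nothing) and 14 in chow offspring (likewise chow P0 replicates 4 and 5), where Ralb was lost (-0.47, adjusted p = 0.143). Under the block Spred1 was lost in HFD offspring (0.80, adjusted p = 0.0607), and with the block and a GC correction 1 member, Rras2, passed the interaction (-1.28, adjusted p = 0.0476). The cause was not tested. Over all genes, 1 rose and 40 fell at P0, against 2 and 8 in the joint fit and 16 and 88 with the block and 9 and 56 with the block and GC correction. At P21, 14 rose and 11 fell, against 10 and 6 with no filter, 3 and 18 in the joint fit, 23 and 15 with the GC correction, 2 and 1 with the block, 5 and 4 with both, and 10 and 5 with edgeR. In the interaction 2 rose and 2 fell, against 65 and 68 with the block, 120 and 79 with the block and GC correction, and 4 and 10 with edgeR. With 1 library left out in turn, 18 to 135 genes were called between diets at P0, 3 to 51 at P21 and 2 to 557 in the interaction, the highest at P0 and in the interaction without HFD P0 replicate 5 and at P21 without chow P21 replicate 1. Depth limits Ksr1 most, at 8 to 119 reads in a library.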
